A study of Mus musculus with 24 samples.

Results

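Gene expression in dorsal brown adipose tissue (BAT) was compared between mice carrying a knockout (KO) of Prxl2a and wildtype (WT) mice, across every gene with enough reads to test. The comparison used 6 of the 24 libraries of the study, chosen by their labels: 3 from WT and 3 from KO females aged 12 weeks, from a design that states 3 mice per group. Mice of both genotypes were fed normally and perfused with PBS to clear the blood before the tissue was frozen. The other libraries came from inguinal adipose tissue, brain and liver of the same genotypes, and may be from the same mice. How the Prxl2a allele was made, the genetic background of the mice, whether WT and KO were littermates, the housing temperature and the hour of collection were details not given in the sources used here. Of the 19015 genes in the table, 12588 passed the filter on low counts in BAT and 6427 were not tested. Levels are given as CPM, read counts scaled to library size and normalised among the 6 BAT libraries, in the order of replicates 1, 2 and 3, and differences as log2 fold changes of KO over WT with their standard error (SE). Every test has n = 3 libraries per genotype, and a gene was called risen or fallen at a Benjamini-Hochberg adjusted p under 0.05 in the quasi-likelihood test of edgeR, adjusted over all 12588 genes. A difference between bulk tissues does not tell fewer cells of a type from less RNA per cell.

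Brown fat burns fatty acids and glucose to make heat. Sympathetic nerves release noradrenaline, beta-adrenergic receptors raise cyclic AMP, stored lipid is broken down, and UCP1 in the inner mitochondrial membrane lets protons flow back without making ATP. The cells are packed with mitochondria and so carry large amounts of respiratory chain transcripts. PRXL2A is a small protein with a thioredoxin-like fold, related to the peroxiredoxins, that has been described as a redox regulator in fat and bone marrow cells and as a damper of MAPK and NF-kB signalling in macrophages.

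The tissue label was checked against markers of brown adipocytes, using the deposited TPM values, which are scaled for transcript length. Fabp4, the fatty acid binding protein of adipocytes, averaged 35952 TPM in WT and ranked first of all genes. Cox8b and Cox7a1, respiratory chain subunits typical of brown fat and muscle, averaged 8748 and 6193 TPM, Cidea, a lipid droplet protein, 3891 TPM, and Ucp1 3392 TPM (SD 593, n = 3). The lineage factors Ebf2, Lhx8, Zic1 and Prdm16 were detected at 21.4, 5.90, 5.33 and 5.26 TPM. Library totals lay between 12327448 and 12948147 counts, and no pair of the 6 libraries matched within sampling noise. WT replicate 1 stood apart: the summed level of 14 skeletal muscle genes was 2117 CPM there, with Acta1, the muscle actin, named after its values were seen, at 470 CPM, against 76.9 to 202 CPM summed in the other libraries. KO replicate 2 was high for interferon genes, with Ifit1 at 85.0 CPM against 6.96 to 12.8 CPM elsewhere, and KO replicate 3 was high for Dio2, the deiodinase that activates thyroid hormone, at 911 CPM against 45.0 to 155 CPM. The median over a single gene list and all libraries is followed in brackets by its lowest and highest value with 1 library left out and, after the letters TPM, by its value on the log2(TPM + 1) scale.

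Prxl2a itself (GRCm38.p6 chromosome 14, 40993735 to 41013833) stood at 471, 501 and 502 CPM in WT and 22.6, 25.7 and 18.9 CPM in KO. The KO mean was 4.56% of that in WT, and each KO library lay far below every WT library, as the genotype labels say. Per transcript length, Prxl2a averaged 511 TPM in WT, a level below Prdx3 at 762 TPM and Prdx1 at 691 TPM and above its paralogues Prxl2c at 40.2 and Prxl2b at 35.3 TPM. No other member of the peroxiredoxin list of 10 genes was called: outside Prxl2a the smallest unadjusted p belonged to Srxn1, the sulfiredoxin that repairs oxidised peroxiredoxins, at -0.24 (SE 0.10, edgeR adjusted p = 0.252). Prdx5, a mitochondrial peroxiredoxin, had 0.15 (SE 0.08, edgeR adjusted p = 0.356), and the paralogue Prxl2b -0.21 (SE 0.16, edgeR adjusted p = 0.502). Within 1000000 bases of Prxl2a, 3 other genes were tested and 0 were called, with log2 fold changes from -0.56 to 0.12. Farther along chromosome 14, Lrmda (22019504 to 23056093), Pck2 (55540263 to 55550020) and Entpd4b (69555401 to 69584940) were called, all lower in KO.

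Beyond Prxl2a few genes were called, and more of them were higher than lower in KO. Of 12588 genes tested, 49 rose (0.389%) and 19 fell (0.151%), together 68 (0.54%), and 2330 had an unadjusted p under 0.05. Among the called genes, 23 rises and 14 falls were at least 2-fold. The median log2 fold change over all genes was -0.01 and the median of its size was 0.17. In all 68 called genes the 3 KO libraries lay on one side of the 3 WT libraries, which was so for 25.6% of all genes tested. The count depended on the libraries: leaving out WT replicate 1, 2 or 3 gave 37, 5 or 2 calls, and leaving out KO replicate 1, 2 or 3 gave 94, 3 or 42. With any of these libraries left out, all 68 genes kept their direction and an unadjusted p under 0.05, while their largest adjusted p ran from 0.0761 to 0.201. Of the 68, 32, 5 or 2 stayed called without WT replicate 1, 2 or 3, and 45, 3 or 26 without KO replicate 1, 2 or 3. The 68 were picked on these same libraries, which favours both the kept direction and the lack of overlap. Neither is an independent check. DESeq2 called 467 genes on the same counts, with 268 up and 199 down, and 65 of the 68 were among them. With limma on log2(TPM + 1), 18 rose and 11 fell, and without a filter on low values 2 rose and 7 fell.

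**Figure D1:**
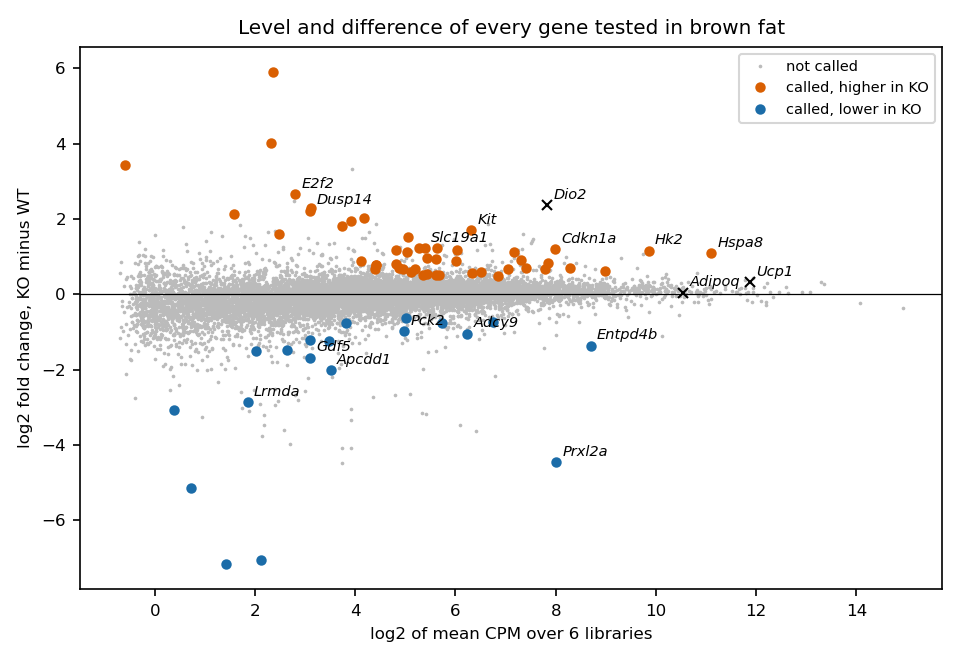
Log2 fold change of KO over WT (vertical axis) against log2 mean CPM over the 6 BAT libraries (horizontal axis) for the 12588 genes tested, with called genes in colour and crosses for 3 brown fat genes that were not called. Called genes are few, with none among the most abundant transcripts, and Dio2, with a log2 fold change of 2.37, was not called and had its highest value in KO replicate 3.

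**Figure D2:**
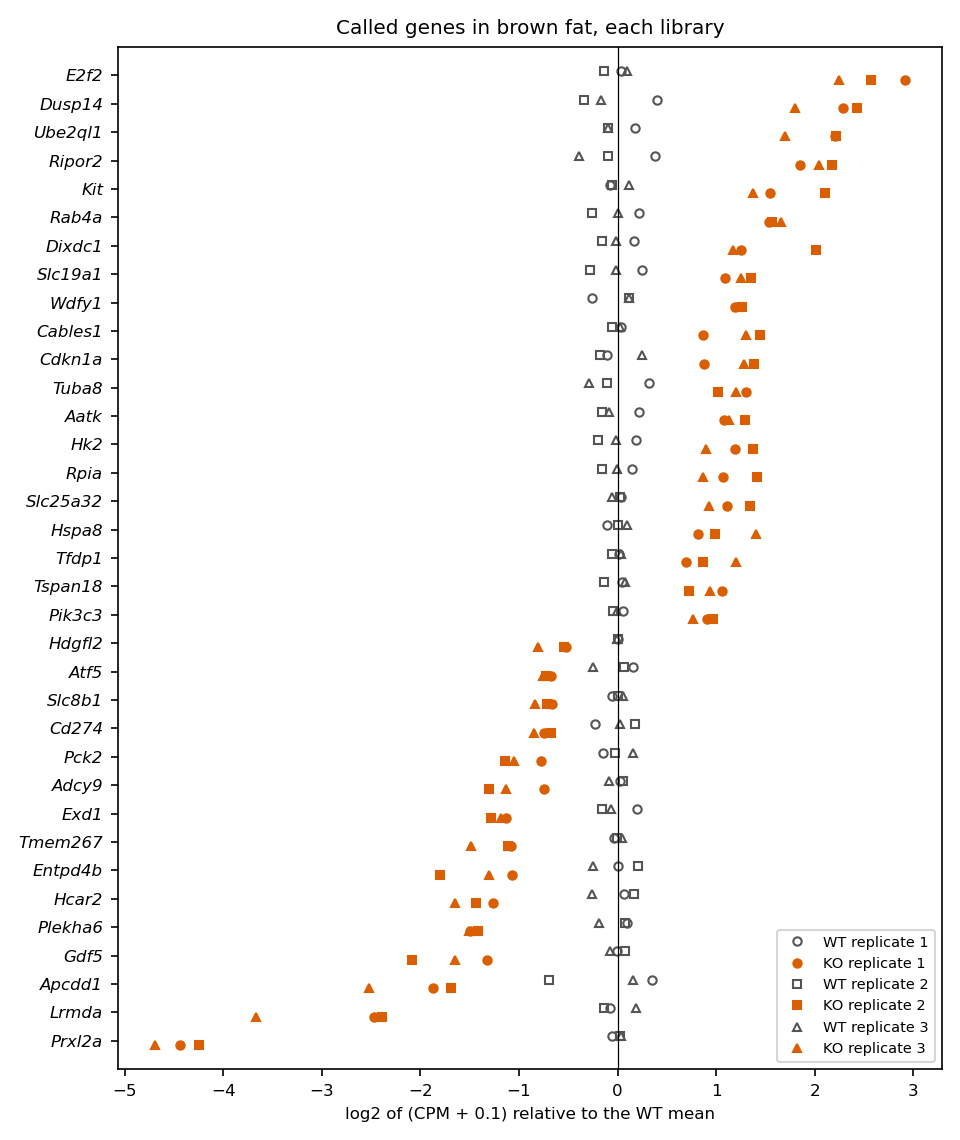
Level in each BAT library relative to the WT mean, as log2 of CPM plus 0.1 (horizontal axis), for the 20 largest rises and 15 largest falls among called genes with a plain symbol and a mean of at least 2 CPM. Open marks are WT and filled marks KO libraries, 3 each, with 1 shape per replicate number, and in every row the KO marks lie clear of the WT marks.

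Rises included 4 genes that act on the cell cycle, grouped here after their values were seen. E2f2, a transcription factor of the E2F family, stood at 1.96, 1.72 and 2.04 CPM in WT and 14.96, 11.8 and 9.43 CPM in KO, with a log2 fold change of 2.66 (SE 0.23, edgeR adjusted p = 0.00950). The 3 KO libraries lay far above every WT library. Tfdp1, which encodes the DP1 partner that E2F factors need to bind DNA, stood at 34.1, 32.5 and 34.4 CPM in WT and 54.6, 61.6 and 77.5 CPM in KO and rose by 0.94 (SE 0.13, edgeR adjusted p = 0.0323). Cdkn1a, the cyclin-dependent kinase inhibitor p21, stood at 143, 136 and 182 CPM in WT and 282, 399.8 and 375 CPM in KO, and its rise was 1.20 (SE 0.16, edgeR adjusted p = 0.0275). Cables1, an adaptor of cyclin-dependent kinases, rose by 1.23 (SE 0.15, edgeR adjusted p = 0.0192). Replication genes were not called: of 25 tested members of the E2F and DNA replication list, 1 rose and 0 fell, the one being E2f2, with 16 of 25 below zero and a median of -0.15 (-0.19 to -0.04, TPM -0.16). E2f4 had 0.36 (SE 0.12, edgeR adjusted p = 0.187), Uhrf1 0.68 (SE 0.28, edgeR adjusted p = 0.250) and E2f3 -0.39 (SE 0.17, edgeR adjusted p = 0.281). E2f1, named after its values were seen, lay at 1.20 CPM in WT and 0.791 CPM in KO. Among 12 tested genes of mitosis 0 were called, and their median was -0.16 (-0.29 to -0.01, TPM -0.27).

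The start of E2f2 is shown because its rise is the largest among genes with a plain symbol and a mean of at least 2 CPM, and because it is the only risen gene with an E2F motif in its promoter window. The stretch lies just after the RefSeq transcript start (chr4:136172294-136172323, plus strand, GRCm38.p6) and reads 5′ to 3′ on the gene's strand, with the motif TTTGGCGC in capitals.
E2f2: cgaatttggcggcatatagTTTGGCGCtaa

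Of the 33 risen genes with a RefSeq promoter window of 300 bases, 1 held TTTCCCGC or TTTGGCGC on either strand (3.03%), and of the 10049 tested genes with a window, 333 did (3.31%). A match is a description of the letters and no evidence that a factor binds there.

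A pair of folate carriers rose. Slc19a1, the reduced folate carrier of the plasma membrane, stood at 29.7, 20.6 and 24.8 CPM in WT and 53.4, 64.1 and 59.8 CPM in KO, with a log2 fold change of 1.24 (SE 0.14, edgeR adjusted p = 0.0192). Slc25a32, the carrier that brings folate into mitochondria, stood at 93.0, 91.9 and 86.7 CPM in WT and 195, 229 and 172 CPM in KO, and its rise was 1.13 (SE 0.11, edgeR adjusted p = 0.0123). In both genes the lowest KO library lay well above the highest WT library. Of 25 tested members of the folate and one-carbon list these 2 rose (8%, against 0.389% of all genes), 0 fell, and the median was 0.10 (0.06 to 0.16, TPM 0.05). The enzymes did not pass: Mat2a, which makes S-adenosylmethionine, had 0.39 (SE 0.11, edgeR adjusted p = 0.158), Mthfd1, the cytosolic folate enzyme, 0.22 (SE 0.08, edgeR adjusted p = 0.208), Gart of purine synthesis 0.22 (SE 0.09, edgeR adjusted p = 0.240) and Mtr, methionine synthase, -0.36 (SE 0.12, edgeR adjusted p = 0.187). Rpia, the isomerase that makes ribose 5-phosphate in the pentose phosphate pathway, stood at 22.8, 18.5 and 20.5 CPM in WT and 43.4, 54.8 and 37.7 CPM in KO and rose by 1.14 (SE 0.15, edgeR adjusted p = 0.0275).

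Hk2, the hexokinase of insulin-sensitive tissues that traps glucose in the cell, rose. Hk2 stood at 648, 498 and 566 CPM in WT and 1303, 1479.5 and 1058 CPM in KO, with a log2 fold change of 1.17 (SE 0.15, edgeR adjusted p = 0.0231), and the groups did not overlap. Slc16a1, the monocarboxylate transporter for lactate and ketone bodies, stood at 228, 248.7 and 236 CPM in WT and 384, 342 and 424 CPM in KO and rose by 0.69 (SE 0.10, edgeR adjusted p = 0.0323). Sh2b2, an adaptor of the insulin receptor, rose by 0.68 (SE 0.10, edgeR adjusted p = 0.0449). Of 25 tested genes of glucose uptake and glycolysis, 1 rose, 0 fell and 17 lay below zero, with a median of -0.13 (-0.31 to 0.05, TPM -0.24), highest without WT replicate 1, the library with muscle transcripts. Pfkfb3, which makes the activator of phosphofructokinase, stood at 655, 414 and 597 CPM in WT and 919, 1302 and 1276 CPM in KO without overlap but did not pass, at 1.07 (SE 0.20, edgeR adjusted p = 0.0756). Slc2a4, the insulin-responsive glucose transporter, had 0.40 (SE 0.14, edgeR adjusted p = 0.208), Pfkl 0.41 (SE 0.14, edgeR adjusted p = 0.193) and Aldoc -1.19 (SE 0.32, edgeR adjusted p = 0.143). The insulin signalling list had 0 of 30 members called and a median of -0.02 (-0.08 to 0.01, TPM -0.14).

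Several rises were in receptors and signalling enzymes. Kit, the receptor tyrosine kinase for stem cell factor, stood at 35.4, 35.9 and 40.4 CPM in WT and 109, 159.7 and 96.8 CPM in KO, with a log2 fold change of 1.71 (SE 0.19, edgeR adjusted p = 0.0182). Kit also marks mast cells, so their defining transcripts are given beside it: Cpa3, a mast cell protease, stood at 11.3, 1.41 and 2.51 CPM in WT and 3.12, 4.22 and 2.79 CPM in KO, and Mcpt4, a mast cell chymase, at 14.9, 1.17 and 1.88 CPM in WT and 2.14, 3.41 and 2.38 CPM in KO. Both were highest in WT replicate 1, with the KO libraries above the other 2 WT libraries, whereas Kit was as low in WT replicate 1 as in the other WT libraries. Of 9 tested mast cell genes Kit alone was called, and 7 lay below zero. Without WT replicate 1, 8 of 9 lay above zero with a median of 0.63, against -0.32 (-0.67 to 0.63, TPM -0.15) over all libraries, and Mcpt4 was at 0.78 and Cpa3 at 0.78. The 9 genes, Kit included, summed to 68.5 to 114 CPM in WT and 144 to 205 CPM in KO. Without Kit the sums were 32.6 to 78.7 CPM in WT and 39.3 to 47.0 CPM in KO, which overlap. The part of mast cells in the rise of Kit was not tested. Dusp14, a phosphatase that switches off MAP kinases, stood at 3.99, 2.35 and 2.66 CPM in WT and 15.04, 16.6 and 10.7 CPM in KO and rose by 2.23 (SE 0.26, edgeR adjusted p = 0.0192), the only call among 18 tested MAP kinase phosphatases, whose median was 0.23 (0.03 to 0.36, TPM 0.03). Dusp1 had 0.96 (SE 0.36, edgeR adjusted p = 0.228), Dusp28 0.42 (SE 0.12, edgeR adjusted p = 0.148) and Dusp22 -0.29 (SE 0.10, edgeR adjusted p = 0.187). Of 24 tested immediate early genes, which respond to handling and to MAP kinases, 0 were called, and the median was 0.07 (-0.24 to 0.46, TPM -0.03), highest without WT replicate 1. Of 19 tested genes of inflammatory MAPK and NF-kB signalling 0 were called, and their median was -0.06 (-0.12 to -0.03, TPM -0.16).

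Gja1, the gap junction protein connexin 43, stood at 147, 174 and 174 CPM in WT and 281, 282 and 319 CPM in KO, and it rose by 0.83 (SE 0.10, edgeR adjusted p = 0.0192). The 2 groups lay far apart against their own spread, as they did for Tspan18, a tetraspanin, at 113, 99.6 and 116 CPM in WT and 229, 181 and 209 CPM in KO, with a rise of 0.91 (SE 0.11). Aatk, a membrane-bound kinase, rose by 1.17 (SE 0.12), Tuba8, an alpha tubulin, by 1.18 (SE 0.16), and Ripor2, a regulator of cell polarity, by 2.04 (SE 0.20). Ube2ql1, a ubiquitin-conjugating enzyme, stood at 1.25, 1.02 and 1.02 CPM in WT and 5.43, 5.44 and 3.77 CPM in KO, a low level at which the rise of 2.15 (SE 0.26, edgeR adjusted p = 0.0192) still cleared the spread. Socs7, a suppressor of cytokine signalling, rose by 0.81 (SE 0.12).

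Genes of endosomes and vesicles formed a further group of rises, picked out after their values were seen. Rab4a, the small GTPase of fast endosome recycling, stood at 3.21, 2.27 and 2.74 CPM in WT and 8.14, 8.28 and 8.86 CPM in KO and rose by 1.62 (SE 0.19, edgeR adjusted p = 0.0192). Pik3c3, the lipid kinase VPS34 that makes the phosphatidylinositol 3-phosphate of early endosomes and autophagosomes, stood at 46.7, 43.6 and 45.0 CPM in WT and 84.9, 88.0 and 76.5 CPM in KO and rose by 0.88 (SE 0.08, edgeR adjusted p = 0.0105). Per transcript length the difference in Pik3c3 was much smaller, at 15.2 TPM (SD 1.93) in WT and 17.9 TPM (SD 1.57) in KO. Wdfy1, a protein with a domain that binds this lipid, rose by 1.23 (SE 0.12, edgeR adjusted p = 0.0105), although its reads may be shared with a near-identical copy, which the counting could split. Necap1, of clathrin-coated vesicles, rose by 0.51 (SE 0.08) and Myrip, which links Rab proteins to myosin, by 0.88 (SE 0.10). Within the fixed list of Rab4 and recycling genes, Rab4a was the only call of 26 tested, and the median was -0.01 (-0.04 to -0.01, TPM -0.11). Sort1, the sortilin of glucose transporter vesicles, had -0.27 (SE 0.08, edgeR adjusted p = 0.173), and Tbc1d4, which holds those vesicles back until insulin acts, -0.22 (SE 0.08, edgeR adjusted p = 0.209).

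Hspa8, the constitutive cytosolic HSP70 chaperone, rose. It stood at 1307, 1414 and 1509 CPM in WT and 2481, 2791 and 3719.6 CPM in KO, with a log2 fold change of 1.09 (SE 0.15, edgeR adjusted p = 0.0329). Every KO library lay above every WT library, and KO replicate 3 was highest. Of 27 tested cytosolic heat shock genes, 1 rose, 0 fell, and 25 lay above zero, with a median of 0.30 (0.17 to 0.46, TPM 0.22), lowest without KO replicate 3. Of the list, 12 had all KO libraries above all WT libraries (14.3% of all genes did). Hsph1, an HSP110 that works with HSP70, stood at 50.5, 49.2 and 65.6 CPM in WT and 92.0, 91.8 and 230.1 CPM in KO, 1.32 (SE 0.36, edgeR adjusted p = 0.143), and Dnaja1, an HSP40 partner, had 0.83 (SE 0.22, edgeR adjusted p = 0.140). Chordc1, an HSP90 partner, had 0.70 (SE 0.16, edgeR adjusted p = 0.101) and Stip1, which links HSP70 to HSP90, 0.50 (SE 0.13, edgeR adjusted p = 0.135). Mitochondrial chaperones and proteases had 0 of 13 called, 12 above zero and a median of 0.16 (0.13 to 0.21, TPM 0.05). Chaperones of the endoplasmic reticulum had 0 of 21 called and a median of 0.07 (0.01 to 0.12, TPM -0.04).

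Nfe2l2, which encodes NRF2, the transcription factor that switches on antioxidant enzymes, stood at 148, 120.2 and 122 CPM in WT and 227, 194 and 213 CPM in KO and rose by 0.70 (SE 0.11, edgeR adjusted p = 0.0471). Its classical targets were not called: of 29 tested genes of glutathione metabolism and the NRF2 response, 1 rose, Nfe2l2 itself, 0 fell, and the median was 0.05 (-0.0012 to 0.09, TPM -0.06). Nqo1, the quinone reductase most often read as an NRF2 target, stood at 2.27, 1.49 and 2.82 CPM in WT and 1.398, 1.14 and 1.148 CPM in KO, with -0.83 (SE 0.31, edgeR adjusted p = 0.227). Sod1, the cytosolic superoxide dismutase, had 0.27 (SE 0.08, edgeR adjusted p = 0.162) and Ggt5, a glutathione-degrading enzyme, -0.52 (SE 0.18, edgeR adjusted p = 0.199). The thioredoxin and glutaredoxin list had 0 of 17 called and a median of 0.15 (0.09 to 0.20, TPM 0.06). Enzymes that supply NADPH had 0 of 16 called, with Nnt, the mitochondrial transhydrogenase, at 7.67, 4.46 and 3.68 CPM in WT and 8.47, 7.71 and 6.32 CPM in KO. No antioxidant enzyme of these lists passed beside the fall of Prxl2a.

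Promoter windows of risen genes were searched for TGACNNNGC, the core of the element bound by NRF2, on both strands, because Nfe2l2 is among the rises. Of 33 risen genes with a window, 12 held it (36.4%), of 12 fallen genes other than Prxl2a 0 did, and of 10049 tested genes 1702 did (16.9%). Risen genes with it were Aatk, Bysl, Cdkn1a, Ddx3x, Ebf3, Ndufaf4, Nfe2l2, Slc16a1, Slc19a1, Ube2ql1 and Usp10, with 1 gene model. The targeted gene Prxl2a holds it as well. This search was chosen with the called genes known and has no test. The 250 bases before the transcript start are shown for 4 of them, Nfe2l2 itself, a folate carrier, a complex I assembly factor and a kinase, from RefSeq on GRCm38.p6, 5′ to 3′ on the gene's strand, with the match in capitals. They lie at chr2:75704664-75704913, minus strand for Nfe2l2, at chr10:77032962-77033211, plus strand for Slc19a1, at chr4:24897833-24898082, plus strand for Ndufaf4 and at chr11:120041782-120042031, minus strand for Aatk.
Nfe2l2: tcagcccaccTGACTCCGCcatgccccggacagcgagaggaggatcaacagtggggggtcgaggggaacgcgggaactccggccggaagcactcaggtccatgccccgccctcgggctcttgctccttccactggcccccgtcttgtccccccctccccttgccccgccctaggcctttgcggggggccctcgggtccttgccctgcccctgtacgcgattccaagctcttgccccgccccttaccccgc
Slc19a1: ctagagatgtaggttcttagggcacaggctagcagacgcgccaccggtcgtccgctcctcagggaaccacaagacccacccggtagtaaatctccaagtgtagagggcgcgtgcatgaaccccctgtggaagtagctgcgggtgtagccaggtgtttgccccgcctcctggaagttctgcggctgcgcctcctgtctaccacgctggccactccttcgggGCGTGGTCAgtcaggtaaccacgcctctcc
Ndufaf4: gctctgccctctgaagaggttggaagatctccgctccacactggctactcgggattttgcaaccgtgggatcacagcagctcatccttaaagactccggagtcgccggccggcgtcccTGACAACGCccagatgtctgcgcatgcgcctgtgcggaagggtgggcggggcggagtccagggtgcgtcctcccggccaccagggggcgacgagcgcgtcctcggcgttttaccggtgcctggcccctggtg
Aatk: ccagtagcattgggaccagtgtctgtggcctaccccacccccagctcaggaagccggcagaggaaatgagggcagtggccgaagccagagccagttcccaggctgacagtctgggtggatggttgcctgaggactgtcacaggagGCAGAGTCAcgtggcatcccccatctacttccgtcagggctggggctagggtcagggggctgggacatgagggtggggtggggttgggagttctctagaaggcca

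The match begins 240 bases before the start in Nfe2l2, 30 in Slc19a1, 132 in Ndufaf4 and 105 in Aatk, so it holds no fixed place. In Slc19a1 and Aatk it is read on the opposite strand. Of the other motifs searched on both strands, the heat shock element (GAA, TTC and GAA units, or TTC, GAA and TTC, with 2 bases between neighbours), the C/EBP-ATF element TGATGNAAT, the sterol element TCACNCCAC, the cyclic AMP element TGACGTCA and the PPAR element (AGGTCA repeated after 1 base) were in 0 of 33 risen genes and 0 of 12 fallen genes other than Prxl2a. Prxl2a held none of them. Their shares among tested genes were 0.557%, 0.577%, 1.34%, 3.51% and 0.0299%, and the cyclic AMP element begins with the same letters TGAC as the NRF2 core. That these letters are not in the windows says nothing about the factors.

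The remaining rises with a plain symbol were smaller, with log2 fold changes from 0.50 to 0.88 in 21 genes, those above included. Ebf3, a factor related to the brown fat determinant Ebf2, stood at 71.0, 75.5 and 70.7 CPM in WT and 107, 107 and 113 CPM in KO and rose by 0.59 (SE 0.07). Ndufaf4, an assembly factor of complex I, stood at 92.0, 100.2 and 93.8 CPM in WT and 133, 134 and 137 CPM in KO and rose by 0.50 (SE 0.07), with KO libraries close together. Endog, a mitochondrial endonuclease, rose by 0.51 (SE 0.08) and Cdk5rap1, which modifies mitochondrial transfer RNAs, by 0.66 (SE 0.09). Bysl and Wdr43 of ribosome assembly rose by 0.70 (SE 0.10) and 0.60 (SE 0.09), the RNA helicase Ddx3x by 0.61 (SE 0.09) and Leo1 of the PAF1 transcription complex by 0.77 (SE 0.10). Usp10, a deubiquitinase, rose by 0.52 (SE 0.08), Ttl, which re-adds tyrosine to tubulin, by 0.68 (SE 0.11), Impa2, an inositol monophosphatase, by 0.66 (SE 0.10), and Arhgap26, a GTPase-activating protein, by 0.57 (SE 0.09). Gramd4 and Mpzl2 complete the set, at 0.78 (SE 0.10) and 0.68 (SE 0.08). Trim80 rose at a trace level, with 1, 1 and 2 counts in WT and 12, 20 and 13 counts in KO.

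After Prxl2a, the largest fall among genes with a plain symbol and a mean of at least 2 CPM was that of Lrmda, a leucine-rich repeat gene of melanocyte differentiation, from 6.02, 5.79 and 7.28 CPM to 1.07, 1.14 and 0.410 CPM, at -2.85 (SE 0.34, edgeR adjusted p = 0.0192). Extracellular signals and their brakes made up a further part of the falls. Apcdd1, a membrane inhibitor of Wnt signalling, stood at 23.3, 11.3 and 20.4 CPM in WT and 4.93, 5.603 and 3.12 CPM in KO and fell, at -2.01 (SE 0.32, edgeR adjusted p = 0.0483). Gdf5, a ligand of the BMP family that has been linked to brown fat formation, stood at 13.1, 13.8 and 12.4 CPM in WT and 5.18, 3.00 and 4.10 CPM in KO and fell, at -1.67 (SE 0.21, edgeR adjusted p = 0.0214). In both genes the highest KO library lay well below the lowest WT library. Dixdc1, an activator of Wnt signalling, moved the other way, from 19.2, 15.3 and 16.8 CPM to 40.9, 69.1 and 38.6 CPM, and rose by 1.54 (SE 0.23, edgeR adjusted p = 0.0400). Of 30 tested Wnt genes 1 rose and 1 fell, with a median of -0.12 (-0.16 to -0.05, TPM -0.11). Fzd8, Lrp6 and Axin2, a receptor, a co-receptor and a target, had -0.65 (SE 0.16), -0.37 (SE 0.09) and 0.69 (SE 0.25) without passing. Of 34 tested BMP and TGF-beta genes 0 rose and 1 fell, Gdf5, with a median of -0.11 (-0.15 to -0.06, TPM -0.14). Inhbb, an activin subunit, and Acvr1, a BMP receptor, had -2.16 (SE 0.40) and -0.37 (SE 0.11) without passing.

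A pair of genes that set cyclic AMP fell. Adcy9, an adenylyl cyclase, stood at 103, 105 and 95.1 CPM in WT and 60.3, 41.0 and 46.1 CPM in KO and fell, at -1.04 (SE 0.14, edgeR adjusted p = 0.0275). Hcar2, the receptor for niacin and beta-hydroxybutyrate that inhibits adenylyl cyclase, stood at 9.62, 10.3 and 7.67 CPM in WT and 3.78, 3.33 and 2.87 CPM in KO and fell, at -1.47 (SE 0.20, edgeR adjusted p = 0.0275). These genes act in opposite directions on cyclic AMP, and both lay lower in every KO library. Of 35 tested adrenergic and cyclic AMP genes, 0 rose and 2 fell (5.71%, against 0.151% of all genes for falls), with a median of -0.04 (-0.09 to -0.01, TPM -0.17). Adrb3, the main beta receptor of brown fat, stood at 154, 155 and 189.9 CPM in WT and 118, 202 and 191 CPM in KO, with 0.03 (SE 0.20, edgeR adjusted p = 0.942), and its sign turned with the scaling. Gnas, the stimulatory G protein, had 0.38 (SE 0.11, edgeR adjusted p = 0.166), Pde4d, a cyclic AMP phosphodiesterase, 0.65 (SE 0.21, edgeR adjusted p = 0.189), and Adra1d, an alpha receptor, -0.88 (SE 0.27, edgeR adjusted p = 0.169). Hcar1, the lactate receptor of the same family, was picked after its values were seen and stood at 49.8, 53.3 and 52.5 CPM in WT and 41.0, 16.7 and 12.2 CPM in KO, with -1.15 (SE 0.39, edgeR adjusted p = 0.194).

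Mitochondrial and stress genes appeared among the falls as well. Pck2, the mitochondrial phosphoenolpyruvate carboxykinase, stood at 37.7, 41.1 and 46.7 CPM in WT and 24.4, 18.9 and 20.2 CPM in KO and fell, at -0.98 (SE 0.13, edgeR adjusted p = 0.0246). Atf5, a transcription factor of the mitochondrial and integrated stress responses, stood at 149, 140.3 and 112 CPM in WT and 83.7, 81.0 and 79.2 CPM in KO, with a fall of -0.72 (SE 0.11, edgeR adjusted p = 0.0483). Slc8b1, the mitochondrial sodium-calcium exchanger, fell as well, at -0.74 (SE 0.11). Of 25 tested genes of the integrated stress response, 0 rose and 1 fell, Atf5, with a median of -0.03 (-0.07 to -0.01, TPM -0.13). Others of the list pointed both ways without passing: Atf4 had 0.87 (SE 0.23, edgeR adjusted p = 0.138), Cebpb 1.86 (SE 0.41, edgeR adjusted p = 0.0968), Psat1 of serine synthesis -1.52 (SE 0.36, edgeR adjusted p = 0.112) and Aldh18a1 of proline synthesis -0.82 (SE 0.24, edgeR adjusted p = 0.161). Cd274, the immune checkpoint ligand PD-L1, stood at 57.1, 75.3 and 68.0 CPM in WT and 39.7, 41.8 and 37.2 CPM in KO and fell, at -0.76 (SE 0.11). Plekha6, a protein with a lipid-binding pleckstrin domain, fell at -1.51 (SE 0.20), Exd1, an exonuclease-domain protein, at -1.22 (SE 0.16), Tmem267, a membrane protein, at -1.23 (SE 0.15) and Hdgfl2, a chromatin reader, at -0.62 (SE 0.10, edgeR adjusted p = 0.04996).

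Some calls are uncertain because their reads can be shared with near-identical copies. Entpd4b, a nucleotidase with the close copy Entpd4, stood at 599, 691 and 504 CPM in WT and 285, 171 and 242 CPM in KO, -1.36 (SE 0.20), and Entpd4 at 16.6, 32.9 and 12.3 CPM in WT and 0, 8.61 and 8.61 CPM in KO. Mup19, of the clustered major urinary protein genes, had 50, 27 and 47 counts in WT and 0, 3 and 0 in KO, and Ifi208, of an interferon-inducible cluster, 27, 34 and 29 counts in WT and 2, 5 and 3 in KO. A further 9 called gene models have no plain symbol, with 7 rises (LOC115489454, LOC105244034, LOC115488503, Gm41885, Gm40525, Gm42102 and Gm39972) and 2 falls. LOC100041599 had 45, 87 and 73 counts in WT and 0, 1 and 0 in KO, and Gm29804 had 78, 139 and 113 counts in WT and 2, 0 and 0 in KO. In liver, 8 of these 9 were called as well. The strand used in counting is not given in the sources used here, so reads of overlapping antisense genes cannot be told apart. Wdfy1, Entpd4b and Tmem267 also belong to a list of 11 tested genes known to differ between mouse substrains or to have near-identical copies. Of that list 1 rose and 2 fell (27.3% called, against 0.54% of all genes). With the background of the mice unknown, genotype and substrain cannot be told apart for these genes. Nnt, which is truncated in some C57BL/6 mice, had overlapping levels in the 2 genotypes.

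No gene of the thermogenic programme was called. Ucp1 stood at 3592, 3783 and 2653 CPM in WT and 3211, 3803 and 5545 CPM in KO, with 0.32 (SE 0.22, edgeR adjusted p = 0.443), and the groups overlapped. Dio2 stood at 119, 57.3 and 45.0 CPM in WT and 78.8, 155 and 911 CPM in KO, 2.37 (SE 0.86, edgeR adjusted p = 0.217), a difference carried by KO replicate 3. Ppargc1a, the coactivator of mitochondrial biogenesis, stood at 39.1, 38.9 and 39.9 CPM in WT and 41.4, 31.8 and 71.8 CPM in KO, 0.30 (SE 0.26), and turned to -0.10 without KO replicate 3. Cidea had 0.23 (SE 0.13) and Prdm16, the brown fat determinant, -0.36 (SE 0.21). Ucp3, a relative of Ucp1 in muscle and brown fat, had KO libraries all above WT, 101, 75.6 and 72.6 CPM in WT and 147, 151 and 117 CPM in KO, but did not pass, at 0.74 (SE 0.15, edgeR adjusted p = 0.0848). Of the 17 tested members of the list, 14 lay above zero against 49% of all genes, with a median of 0.30 (0.18 to 0.34, TPM 0.12), lowest without WT replicate 3. All KO libraries lay above all WT libraries in 4 of the 17 (14.3% of all genes). Of the 17, 6 had an unadjusted p under 0.05, as had 2330 of all 12588 genes. The list of creatine and calcium cycling, which can make heat without UCP1, had 0 of 8 tested genes called and 0 with an unadjusted p under 0.05. Among 20 tested genes of brown adipocyte identity 1 rose, Ebf3, and 0 fell, with a median of -0.03 (-0.20 to 0.02, TPM -0.11). Cebpa and Ppara, factors of adipocytes and of fat oxidation, had -0.51 (SE 0.16) and -0.74 (SE 0.30). Cebpb and Pparg of the same list had 1.86 (SE 0.41) and 0.28 (SE 0.09). All KO libraries lay above all WT libraries in 3 of the 20 (14.3% of all genes) and below in 1 (11.3% of all genes).

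Subunits of the respiratory chain showed small differences that mostly had the same sign. Of 77 nuclear genes of complexes I to V, 74 lay above zero, 38 had all KO libraries above all WT libraries (14.3% of all genes did), 0 were called, and the median was 0.18, close to the median size of 0.17 of any gene's difference. By complex, the KO libraries lay above WT in 23 of 36 genes of complex I, 1 of 4 of complex II, 3 of 9 of complex III, 5 of 12 of complex IV and 6 of 16 of complex V. The medians were 0.18 (0.14 to 0.23, TPM 0.03), 0.08 (0.0014 to 0.14, TPM -0.04), 0.18 (0.14 to 0.24, TPM 0.07), 0.20 (0.15 to 0.26, TPM 0.06) and 0.13 (0.09 to 0.19, TPM 0.0029). On the log2(TPM + 1) scale, where the median of all genes was -0.08, 54 of the 77 lay above zero and the median was 0.03. Of the 11405 tested genes with a value on that scale, 3831 lay above zero. Ndufa2 of complex I stood at 163, 185 and 151 CPM in WT and 199, 223 and 208 CPM in KO, 0.34 (SE 0.10, edgeR adjusted p = 0.155), and Cox8b of complex IV at 461, 473 and 379 CPM in WT and 540.5, 628 and 595 CPM in KO, 0.43 (SE 0.11, edgeR adjusted p = 0.130). Fatty acid oxidation had 25 of 31 genes above zero, 0 called and a median of 0.14 (0.09 to 0.19, TPM 0.03) and lowest without KO replicate 3, with 17 of 31 above zero on the TPM scale, and the carnitine carrier Slc25a20 had 0.34 (SE 0.10). The citrate cycle had 22 of 25 above zero, 0 called and a median of 0.09 (0.03 to 0.14, TPM -0.01). Mitochondrial dynamics and mitophagy had 0 of 21 called and a median of 0.07 (0.03 to 0.10, TPM -0.04), with the prohibitin Phb2 at 0.33 (SE 0.07, edgeR adjusted p = 0.0985) and Tomm20, a receptor of the outer membrane import channel, at 0.31 (SE 0.10).

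Lipid genes showed no call. Plin2 and Plin4, coat proteins of lipid droplets, stood at 698, 515 and 580.4 CPM in WT and 844, 990.1 and 1072 CPM in KO, 0.70 (SE 0.14, edgeR adjusted p = 0.0786), and at 905, 898 and 1088 CPM in WT and 1465, 1415 and 1142 CPM in KO, 0.48 (SE 0.13, edgeR adjusted p = 0.138). In the lipid droplet list 17 of 21 lay above zero (12 of 21 on the TPM scale, where 3831 of 11405 genes did). Its median was 0.17 (0.13 to 0.21, TPM 0.05). All KO libraries lay above all WT libraries in 6 of the 21 (14.3% of all genes). Mlxipl, the glucose-sensing factor ChREBP, had KO libraries all above WT at 374, 414 and 501 CPM in WT and 723, 1077 and 708 CPM in KO, 0.96 (SE 0.18, edgeR adjusted p = 0.0781), while Me1, malic enzyme, stood at 2144, 1006 and 1407 CPM in WT and 883, 759 and 488 CPM in KO, -1.10 (SE 0.30, edgeR adjusted p = 0.144). Fasn, fatty acid synthase, stood at 24194, 14658 and 16514 CPM in WT and 19418, 18182 and 9703 CPM in KO, -0.23 (SE 0.29), and 14 of 25 synthesis genes lay above zero with a median of 0.03 (-0.01 to 0.11, TPM -0.07), highest without WT replicate 1. Pparg, the master factor of adipocytes, had 0.28 (SE 0.09, edgeR adjusted p = 0.178), Fabp4 0.27 (SE 0.10, edgeR adjusted p = 0.230) and Adipoq 0.05 (SE 0.08, edgeR adjusted p = 0.766), whose sign turned on the log2(TPM + 1) scale. Lep, leptin, stood at 126, 91.5 and 112 CPM in WT and 178, 142 and 47.7 CPM in KO, with 0.16 (SE 0.40, edgeR adjusted p = 0.849), and its values overlapped widely and its sign turned on the log2(TPM + 1) scale. Among 23 tested secreted factors 0 were called, with Nampt at 0.41 (SE 0.09), Retn, resistin, at -1.18 (SE 0.29) and Kng2 at -0.58 (SE 0.15).

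Sterol genes were measured as well, and 0 of 22 synthesis genes were called. Of these, 9 had an unadjusted p under 0.05, as had 2330 of all 12588 genes. All KO libraries lay above all WT libraries in 6 (14.3% of all genes) and below in 2 (11.3% of all genes). The median was 0.20 (0.03 to 0.25, TPM 0.09), lowest without KO replicate 2. Cyp51, which demethylates lanosterol, stood at 37.0, 30.3 and 35.3 CPM in WT and 47.5, 59.0 and 53.0 CPM in KO, 0.64 (SE 0.11, edgeR adjusted p = 0.0675). Hsd17b7 and Hmgcs1, 2 other enzymes of the pathway, had 0.75 (SE 0.15) and 0.28 (SE 0.07). Of 15 genes of cholesterol uptake and export 0 were called and the median was -0.05 (-0.09 to -0.04, TPM -0.12). Lrp1, a receptor for remnant lipoproteins, Scarb1, the HDL receptor, and Npc1, which exports cholesterol from lysosomes, lay below zero, at -0.76 (SE 0.15), -0.35 (SE 0.09) and -0.51 (SE 0.14), with all KO libraries below all WT libraries in each.

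Many clock genes had separate values in the genotypes, and none passed the adjusted test. Of 18 tested, 0 were called and 11 had an unadjusted p under 0.05, as had 2330 of all 12588 genes. All KO libraries lay above the WT libraries in 5 (14.3% of all genes) and below in 5 (11.3% of all genes). Arntl, the activator BMAL1, stood at 2.27, 2.42 and 2.27 CPM in WT and 4.19, 10.1 and 7.63 CPM in KO, 1.65 (SE 0.33, edgeR adjusted p = 0.0789). Nr1d2, the repressor REV-ERB beta, stood at 139.6, 172 and 144 CPM in WT and 105, 89.3 and 102 CPM in KO, -0.62 (SE 0.11, edgeR adjusted p = 0.0668), and Per3 at 159, 180.2 and 146 CPM in WT and 113, 88.8 and 73.1 CPM in KO, -0.82 (SE 0.16, edgeR adjusted p = 0.0786). The other clock genes named here were picked after their values were seen. Dbp, an output factor that BMAL1 switches on, stood at 106, 75.9 and 59.7 CPM in WT and 48.5, 25.3 and 17.3 CPM in KO, with -1.41 (SE 0.37), and Nr1d1, REV-ERB alpha, had -1.05 (SE 0.26). Nfil3, which opposes DBP, had 1.03 (SE 0.26), Bhlhe41 1.07 (SE 0.22) and Cry1 0.36 (SE 0.10). The transcripts of these genes cycle over the day in fat, and the hour at which each mouse was taken is not given in the sources used here, so genotype and hour cannot be told apart. Fkbp5, a glucocorticoid target, stood at 114, 70.5 and 118 CPM in WT and 238, 347 and 197 CPM in KO, 1.37 (SE 0.25, edgeR adjusted p = 0.0759), and of 16 tested glucocorticoid targets 1 rose, Cdkn1a, with a median of 0.09 (0.02 to 0.23, TPM 0.01).

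**Figure D3:**
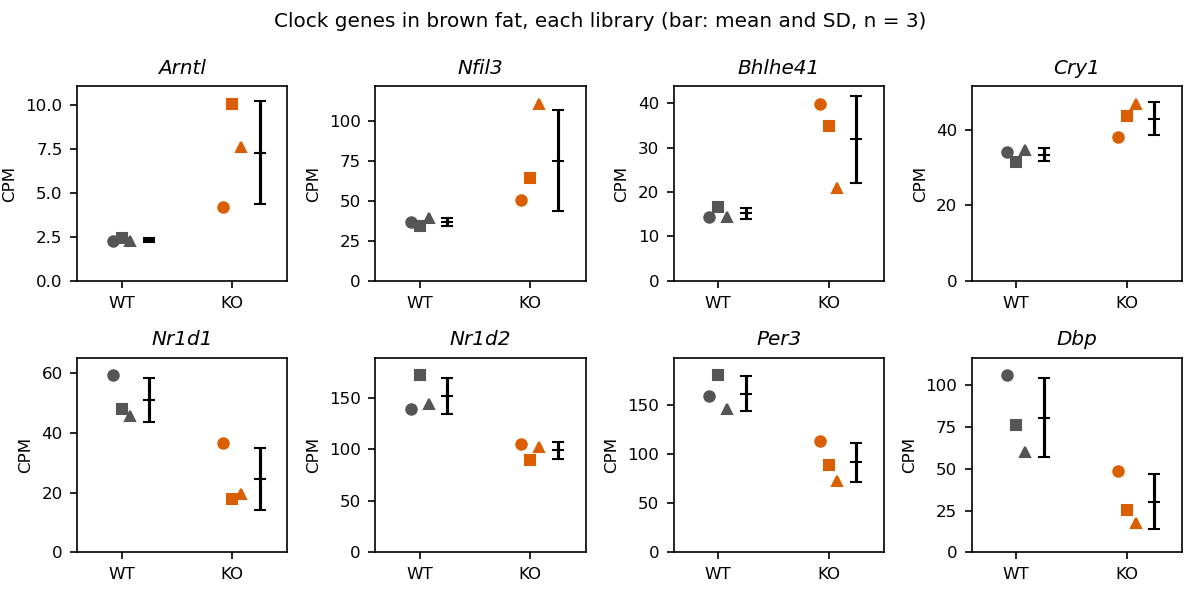
CPM of 8 clock genes in each BAT library, with WT at the left and KO at the right of each panel, 1 mark per library and a bar for the mean and SD (n = 3 per genotype). Arntl, Nfil3, Bhlhe41 and Cry1 were higher and Nr1d1, Nr1d2, Per3 and Dbp lower in all KO libraries, and none of the 8 passed the adjusted test.

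Matrix genes lay lower in KO, beside the high muscle transcripts of WT replicate 1. Of 22 tested collagens, 21 lay below zero and 15 had all KO libraries below all WT libraries (11.3% of all genes did). By edgeR 0 were called at an adjusted p under 0.05, and 16 had an unadjusted p under 0.05, as had 2330 of all 12588 genes. The median was -0.58 (-0.79 to -0.48, TPM -0.58), nearest zero without WT replicate 1. Col3a1 stood at 423, 266 and 358 CPM in WT and 154, 149 and 197 CPM in KO, -1.06 (SE 0.18, edgeR adjusted p = 0.0614), and Col1a2 at 222, 122 and 160.2 CPM in WT and 84.8, 74.7 and 87.4 CPM in KO, -1.03 (SE 0.20, edgeR adjusted p = 0.0786). WT replicate 1 was the highest library in both, and the KO libraries stayed below the other 2 WT libraries too. Of 28 other stromal and matrix genes 24 lay below zero and 0 were called, and their median was -0.53 (-0.73 to -0.13, TPM -0.48), nearest zero without WT replicate 1. Lox, which cross-links collagen, stood the other way, at 25.1, 19.9 and 24.6 CPM in WT and 30.8, 37.2 and 49.6 CPM in KO, 0.76 (SE 0.18, edgeR adjusted p = 0.116). Pdgfra, a marker of fat progenitors, had -0.65 (SE 0.21, edgeR adjusted p = 0.186).

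Markers of other cells were measured beside these lists. Macrophage genes had 0 of 20 called and a median of -0.49 (-0.74 to -0.01, TPM -0.46), nearest zero without WT replicate 1, and their summed level was 234 to 597 CPM in WT and 239 to 281 CPM in KO. Skeletal muscle genes had 0 of 14 called and a median of -2.86 (-3.45 to 2.55, TPM -0.80), which turned positive without WT replicate 1. Endothelial genes had 0 of 15 called and a median of -0.10 (-0.26 to 0.02, TPM -0.15), and without WT replicate 1 all 15 lay below zero. The list of pericytes and smooth muscle had 0 of 12 called and a median of -0.03 (-0.17 to 0.08, TPM -0.09), lowest without WT replicate 1. That of Schwann cells and nerve had 0 of 8 called and a median of -0.15 (-0.24 to 0.02, TPM -0.18), highest without WT replicate 1. Lymphocyte genes had 0 of 6 called, all 6 below zero and a median of -0.82 (-0.78 to -0.60, TPM -0.61 from 1 gene). Their level was low, summing to 6.65 to 8.14 CPM in WT and 4.22 to 5.17 CPM in KO. Red cell genes summed to 210.4 to 961 CPM in WT and 318 to 655 CPM in KO. The interferon list had 22 of 23 genes above zero, 0 called and a median of 0.47 (-0.23 to 0.75, TPM 0.20), which turned negative without KO replicate 2. The part of these cells in the lower collagen values was not tested.

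**Figure D4:**
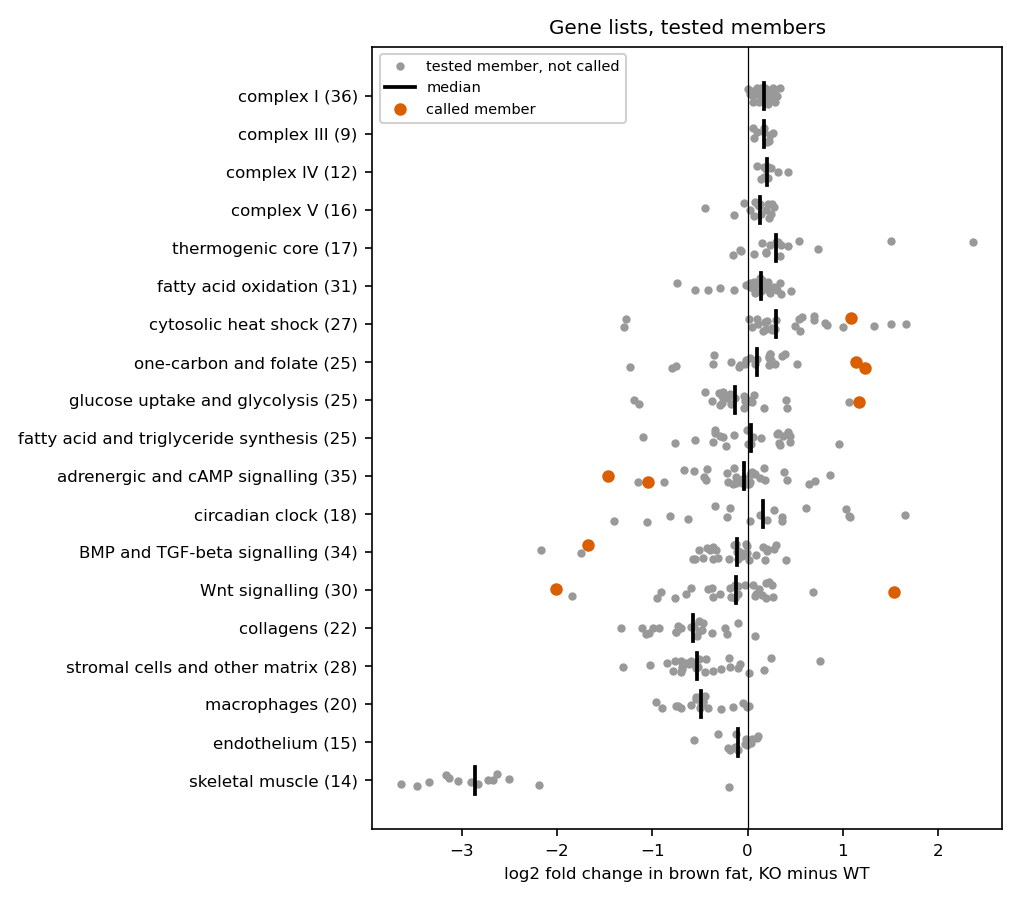
Log2 fold change of KO over WT in BAT (horizontal axis) for the tested members of 19 gene lists (rows, with the number tested), with called members in orange and a black bar at each median. Most genes of complexes I, III, IV and V sit close to and above zero, collagens and stromal genes below it, and skeletal muscle genes far below it with WT replicate 1 included.

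The genes called in BAT were then read in the other tissues, whose libraries are separate but may come from the same mice. In inguinal fat 67 of the 68 were tested and 0 called by edgeR, where 0% of 14097 genes were called and 2226 had an unadjusted p under 0.05. The sign was the same as in BAT for 53 of 67 genes in inguinal fat, 40 of 62 in brain and 42 of 61 in liver, with no test. Prxl2a itself had -4.58 (SE 0.41) in inguinal fat and missed the threshold in that tissue, with an edgeR adjusted p of 0.0912. In liver 61 were tested and 15 called in the same direction (24.6% of these, and 14% of the 107 liver calls tested in BAT), where 1.11% of 12331 genes were called. In brain 62 were tested and 5 called in the same direction (8.06% of these, and 83.3% of the 6 brain calls tested in BAT), where 0.0487% of 14385 genes were called. The genes shared with liver were Prxl2a, Pik3c3, Wdfy1, Entpd4b, Tmem267, Pck2, Ifi208 and 8 gene models, and with brain Prxl2a, Wdfy1, Entpd4b and 2 gene models. By counts, Pik3c3 had 0.88 (SE 0.08) in BAT, 1.66 (SE 0.14) in liver, 1.61 (SE 0.18) in inguinal fat and 0.41 (SE 0.10) in brain. Its difference in BAT was much smaller in TPM, as given above. Pck2 had -0.98 (SE 0.13) in BAT, -1.22 (SE 0.18) in liver and -0.05 (SE 0.14) in inguinal fat.

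A direct test asked which genes changed in BAT differently from the mean change in inguinal fat, brain and liver. In 1 edgeR fit of the 24 libraries, 11 of 16169 genes were called (0.068%), 10 with a higher and 1 with a lower change in BAT, and 7 of the 68 BAT calls were among them: Ube2ql1, Rab4a, Gja1, Rpia, Tfdp1, Cables1 and Aatk. For Ube2ql1 the difference between the changes was 2.08 (SE 0.29, edgeR adjusted p = 0.0122), with 2.15 (SE 0.26) in BAT and -0.11 (SE 0.10) in brain. Ube2ql1 did not pass the filter on low counts in inguinal fat or liver, so its mean change over the other tissues rests partly on very low counts. For Rab4a it was 1.14 (SE 0.18, edgeR adjusted p = 0.0283), with 1.62 (SE 0.19) in BAT, 0.69 (SE 0.18) in inguinal fat, 0.59 (SE 0.14) in liver and 0.18 (SE 0.11) in brain, and it was called in BAT only, with edgeR adjusted p = 0.225 in inguinal fat, 0.0891 in liver and 0.784 in brain. For the other genes called in BAT, E2f2, Kit, Hk2, Slc19a1 and Hspa8 among them, the difference between tissues did not pass, which does not show that their changes were alike. E2f2 had 2.66 (SE 0.23) in BAT and 2.29 (SE 0.64) in inguinal fat, against -0.29 (SE 0.36) in brain. With 1 BAT library left out at a time, the count of 11 became 3, 0 or 2 for WT replicates 1, 2 and 3, and 41, 5 or 8 for KO replicates 1, 2 and 3.

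**Figure D5:**
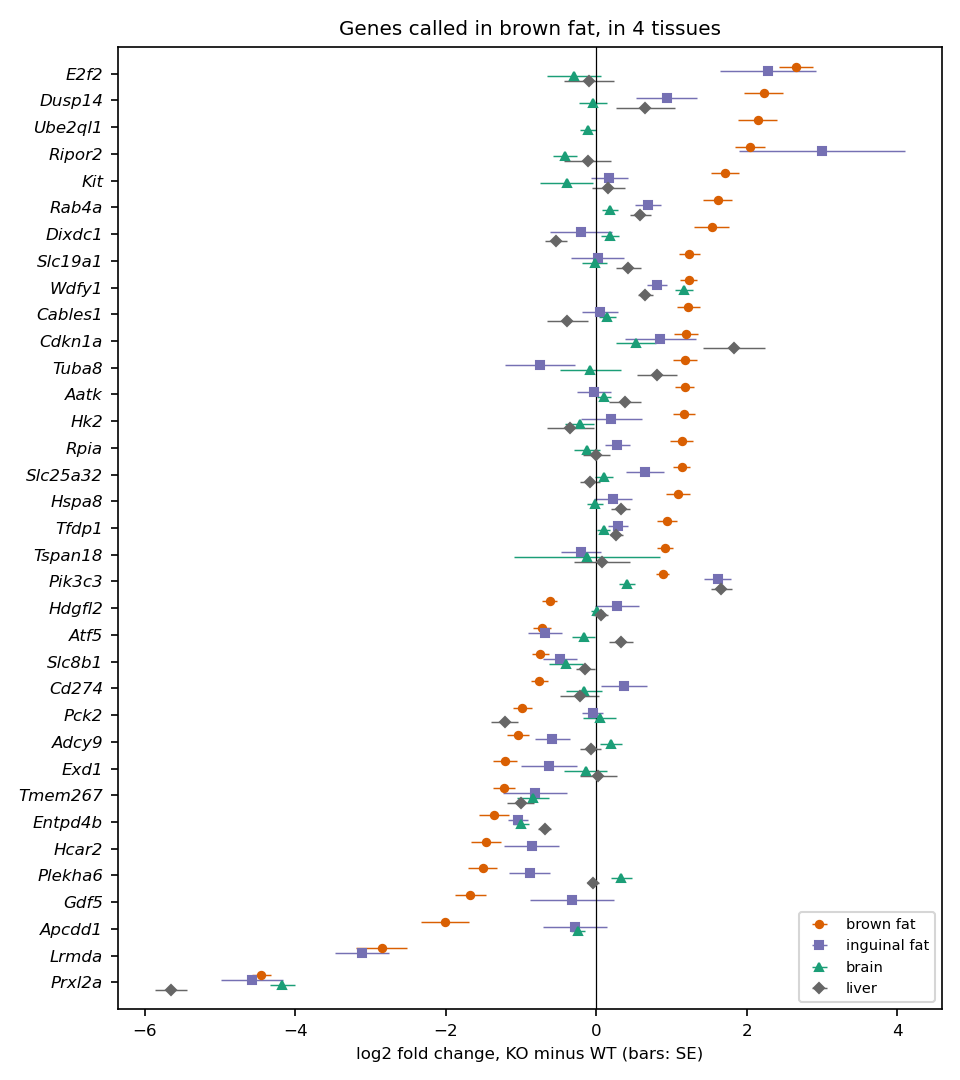
Log2 fold change of KO over WT with its SE (horizontal axis) in BAT, inguinal fat, brain and liver, 3 libraries per genotype each, for the 20 largest rises and 15 largest falls of BAT, with no mark where a gene was not tested. Prxl2a lay far below zero in all 4 tissues, Pik3c3 lay above zero in all of them, and the 4 tissues are spread widely for genes such as Kit, Dixdc1 and Pck2.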

How the data were processed

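Transcripts were measured by RNA sequencing in 6 brown fat libraries, 3 per genotype. The authors deposited expected counts, estimated reads per gene that need not be whole, beside TPM values, scaled for transcript length and depth, per the file headers. The submitters' processing notes list RSEM 1.3.1, DESeq2 1.4.5 and Bowtie2 2.3.4.3, with build GRCm38.p6. The annotation, any filter and the strand setting were not given in the sources used here. A further 48 per-sample columns were not used.

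Expected counts were rounded and tested with edgeR 4.0.16 in R 4.3.3 (TMM factors, filterByExpr, quasi-likelihood F-test, Benjamini-Hochberg, called under 0.05). The tissue difference was 1 contrast over 24 libraries, with no term for mice that tissues may share. Gene identifiers matched RefSeq for 18958 genes, 99.7%, and 46 of the 68 called genes matched a promoter window. The test was tried on simulated counts with known changes first. It recovered 19 of 67 genes changed 1.5-fold, 52 of 67 changed 2-fold and 65 of 66 changed 4-fold, with 6 false calls. In the simulation each gene had the spread typical of its level, no library stood apart, and only genes above 2 CPM were changed. These rates need not hold for the real libraries, some of which stood apart. A gene that was not called may therefore still differ.

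The members, the 54 gene lists, the motifs and the tests were chosen with earlier results of these data known, so lists are described by counts and medians and have no test. Named genes were Prxl2a, the 20 largest rises and 15 largest falls among called genes with a plain symbol and at least 2 CPM, the other called genes by symbol, called list members, up to 4 further members per list with the smallest unadjusted p, 12 brown fat and adipocyte genes fixed by name, up to 10 genes of the tissue contrast and the count of neighbours of Prxl2a. Genes outside this rule are said to be so. Alternatives were other scalings, filters, tools and fits, TPM on a log2 scale, a replicate block, and each library left out. A few genes within this rule are not reported here.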

Additional observations from a re-analysis of the deposited data

Results flagged for a closer look

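In 11 genes the change in brown fat differed from the mean change in inguinal fat, brain and liver, by the test of that difference in 1 edgeR fit of 24 libraries, with all values on the log2 scale. Among genes called in brown fat, Ube2ql1 differed by 2.08 (SE 0.29, edgeR adjusted p = 0.0122), Rab4a by 1.14 (SE 0.18, edgeR adjusted p = 0.0283), Gja1 by 1.295 (SE 0.22, edgeR adjusted p = 0.0343), Rpia by 1.09 (SE 0.20, edgeR adjusted p = 0.0482), Tfdp1 by 0.72 (SE 0.13, edgeR adjusted p = 0.0482), Cables1 by 1.29 (SE 0.24, edgeR adjusted p = 0.0482) and Aatk by 1.02 (SE 0.19, edgeR adjusted p = 0.0482). Of these, Ube2ql1 did not pass the filter on low counts in inguinal fat or liver. Gja1 had 0.83 (SE 0.10) in brown fat, -0.98 (SE 0.25) in inguinal fat, -0.47 (SE 0.20) in liver and 0.07 (SE 0.13) in brain. Its difference therefore holds lower values elsewhere as well as the rise in brown fat. The other 4 were not called in brown fat alone. Shroom1, an actin-binding protein, differed by 2.49 (SE 0.43, edgeR adjusted p = 0.0343) and stood at 2.82, 1.41 and 2.04 CPM in WT and 12.5, 16.8 and 5.74 CPM in KO, without overlap. Gldn differed by 3.53 (SE 0.55, edgeR adjusted p = 0.0283), with 0.84 (SE 0.29) in brown fat and -6.73 (SE 0.95) in liver. Gprc5c, an orphan receptor, differed by 1.22 (SE 0.23, edgeR adjusted p = 0.0482), with 0.76 (SE 0.25) in brown fat. Mgat5, a glycosyltransferase, differed by -0.66 (SE 0.11, edgeR adjusted p = 0.0343) and stood at 11.5, 11.1 and 11.2 CPM in WT and 7.15, 7.23 and 8.28 CPM in KO, the 1 gene of the 11 with a lower change in brown fat.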

How the results depend on the processing

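Calls depended on the design more than directions did. The 68 calls became 70 with RLE size factors, 58 with no filter on low counts, 65 with a minimum of 1 CPM in 3 libraries, 55 with limma-voom, 95 with a robust prior, 467 with DESeq2, 173 in 1 fit of all 24 libraries, 29 on log2(TPM + 1), 28 on log2(TPM + 0.1), 9 on log2(TPM + 1) with no filter, and 37 when a 2-fold change was asked for as well. Leaving out 1 library gave 2 to 94 calls. All 68 kept their direction wherever a setting gave a value, which their choice on the same libraries favours. The cause of the shifts in the count was not tested. Prxl2a passed in every setting, at -4.34 to -4.60.

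With the replicate number as a block, 1 gene was called in brown fat. With libraries of the same genotype and number treated as 1 mouse across tissues, 2 were called in the tissue contrast. Same-numbered WT and KO brown fat libraries had residual correlations of -0.24, -0.21 and -0.17, and no library correlated best with its own number. With 3 libraries per genotype these values cannot decide whether the numbers pair WT with KO mice. They do not bear on whether tissues share a mouse, which was not tested.

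The 11 calls of the tissue contrast were 11 with RLE size factors, 10 of them shared and Aatk lost, and became 5 with no filter, 2 with limma-voom, 129 with DESeq2, 7 against brain and liver only, and 0 (1173 at an unadjusted p under 0.05) to 41 with 1 brown fat library left out. Of the 7 calls against brain and liver only, 4 were shared with the 11, and Gja1 and Gprc5c were not among them.

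Of the named genes, 9 turned sign somewhere, none of them called, and the cause was not tested. Adrb3 was -0.10 on each TPM scale and -0.11 to 0.23 with a library left out. Adipoq was -0.059 on each TPM scale. Lep was -0.029 with limma-voom, -0.0047 with the replicate block, -0.12 on log2(TPM + 1) with and without the filter, -0.13 on log2(TPM + 0.1), and -0.21 to 0.55 with a library left out. With a library left out, Ppargc1a ran from -0.10 to 0.52, Fasn from -0.41 to 0.028, Mcpt4 from -1.66 to 0.78, Tpsb2, a mast cell tryptase, from -1.37 to 0.63, Cpa3 from -1.03 to 0.78 and Ifit1 from -0.22 to 2.34. The median of all genes moved from -0.01 to -0.08 on log2(TPM + 1). The smallest called rise in a gene with a plain symbol was 0.50 on the log2 scale, so smaller differences were not resolved here. Larger ones can be missed too, since the test recovered only 19 of 67 simulated 1.5-fold changes.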
